A study of Danio rerio with 11 samples.

Results

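The genes described here encode the proteins of the cytosolic ribosome in zebrafish embryos exposed to oil emulsions from the Deepwater Horizon spill. They were chosen by name: the array annotation had to give a probe set exactly one symbol, beginning with rpl or rps and a digit, or with rplp. Genes for the kinases of ribosomal protein S6 (rps6k) were left out, and a log2 signal of at least 6 was required on at least 1 of the 11 arrays. The rule found 73 genes among 6466 genes with a single symbol and a tested probe set. Of these, 28 carry small-subunit symbols (rps), 42 carry large-subunit symbols (rpl) and 3 encode proteins of the ribosomal stalk (rplp0, rplp2 and rplp2b). The choice used no difference between arrays. RefSeq lists 84 zebrafish genes under the same naming rule, and the other 11 were not analysed here.

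Whole embryos were kept 30 to a cup with 100 ml of zebrafish medium, and the total RNA of 1 cup went onto each array. The labels name no strain or genotype. Controls were collected at 48 hours post fertilization (hpf; 1 array), 72 hpf (3 arrays) and 96 hpf (2 arrays) from medium without emulsion. Exposed cups held 250 mg of emulsion gathered at the shoreline of Gulfport, Fort Morgan or Perdido Key, a mixture of alkanes, polynuclear aromatic hydrocarbons, sand and seawater. The exposure lasted 48 h and ended at collection. Gulfport emulsion was given from 0 to 48, 24 to 72 or 48 to 96 hpf, and the Fort Morgan and Perdido Key emulsions from 24 to 72 hpf, with 1 array for each. The comparisons ask how the transcripts of the ribosome changed with age in controls, and whether exposed embryos differed from controls of their age.

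A ribosome is built from a small subunit, which reads the messenger RNA, and a large subunit, which joins the amino acids. Each subunit is a core of ribosomal RNA covered by many different proteins, and most of these are needed in equal numbers. Vertebrate ribosomal protein messenger RNAs begin with a terminal oligopyrimidine (TOP) tract, through which the TOR pathway sets how strongly they are translated, so the level of the message and the output of protein need not move together. In zebrafish, loss of single ribosomal proteins is known to raise p53 and to disturb the development of blood and other tissues.

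Values are log2 probe set signals normalized together over all arrays, so a change in the total amount of RNA in an embryo stays hidden. The array medians over all probe sets lay between 6.37 and 6.42. Of 39 tissue markers listed, 31 were measured and 28 reached 6 on all 11 arrays, and each of the 11 tissues had at least 1 such marker, as whole embryos would give. In such pooled RNA, fewer cells of a type and less RNA per cell cannot be told apart. Nothing in the labels says whether cups of a group came from separate spawnings, so the p-values rest on a spread that may be partly or wholly technical. The labels name no batch of arrays.

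The ribosomal protein genes were among the brightest on every array and among those that varied least. The median over the 73 genes stood at the 99th percentile of tested probe sets, from 99.04 on the Perdido Key array to 99.19 on 96 hpf control array 1. Between 64 and 68 of the 73 genes lay in the top 2% of an array. The mean over the arrays was at least 12 for 68 of the 73. The 5 dimmer genes were rpl22l1 and rps27.2, between 10.91 and 11.69 on the arrays, and rpl7l1, rps27l and rps19bp1, between 7.63 and 9.31. Of these, rpl22l1, rps27l and rpl7l1 encode relatives of Rpl22, Rps27 and Rpl7, and rps19bp1 met the naming rule although it encodes a protein that binds Rps19 and no subunit. The member nearest the signal limit was rps19bp1, with a highest value of 7.95, and the nearest outside was a further probe set of rpl21, with a highest value of 3.66. Signals of different probe sets do not rank genes by transcript number, since probes differ in brightness.

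The range of a gene over all 11 arrays, across 3 ages and 3 emulsions, had a median of 0.25 on the log2 scale in the 73 genes and of 0.65 over all 9803 tested probe sets. It was under 0.5 in 66 of the 73 genes and reached 1 in none, while 2260 tested probe sets reached 1. The steadiest was rpl19, a large-subunit protein, which read between 13.01 and 13.09 on all 11 arrays. The widest was rpl29, also of the large subunit, with a range of 0.79. The 123 other probe sets with a mean of at least 12 had a median range of 0.53, and 18 of them reached 1. Their median level was 12.74, against 13.04 for the ribosomal protein genes, and the part of brightness in the narrow range was not tested. Probe sets of duplicated genes, such as rpl5a and rpl5b or rps27.1 and rps27.2, may bind each other's RNA, which was not tested either. The genes rpl3, rps27.1 and rps19bp1 had more than 1 tested probe set. In each of these genes, the probe sets differed in sign in some of the comparisons. From 72 to 96 hpf in controls, the probe set standing for rps27.1 differed by 0.003, and its others by 0.093 and -0.018. With Gulfport emulsion at 72 hpf, the probe set standing for rps19bp1 differed by -0.026, and its other by 0.14. From 48 to 72 hpf the 2 of rpl3 differed in sign, at 0.04 and -0.05, and neither passed.

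**Figure D1:**
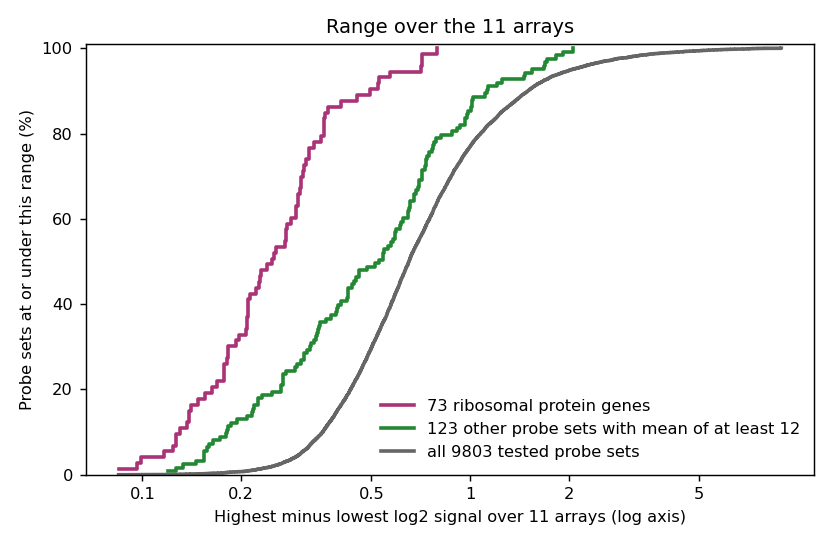
Share of probe sets (%) at or under a given range, plotted against the range (highest minus lowest log2 signal over the 11 arrays, log axis), for the 73 ribosomal protein genes, 123 other probe sets with a mean of at least 12 and all 9803 tested probe sets. The ribosomal protein curve lies to the left, with a median of 0.25, against 0.53 and 0.65 for the other curves.

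In control embryos, the median level of the ribosomal protein genes was slightly lower at 72 hpf than at 48 and 96 hpf, with 1 array behind the 48 hpf level. The median over the 73 genes was 13.09 on the 48 hpf control array, 12.94, 12.96 and 12.99 on the 72 hpf control arrays, and 13.09 and 13.09 on the 96 hpf control arrays. All 3 arrays at 72 hpf lay below the other 3. The exposed arrays sat with the controls of their age, at 13.10 (48 hpf), 12.98, 12.97 and 12.94 (Gulfport, Fort Morgan and Perdido Key at 72 hpf) and 13.05 (96 hpf). All 6 arrays of 72 hpf, exposed or not, were therefore below all 5 others. With these arrays, the age of 72 hpf cannot be told apart from anything else the arrays of that age share.

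**Figure D2:**
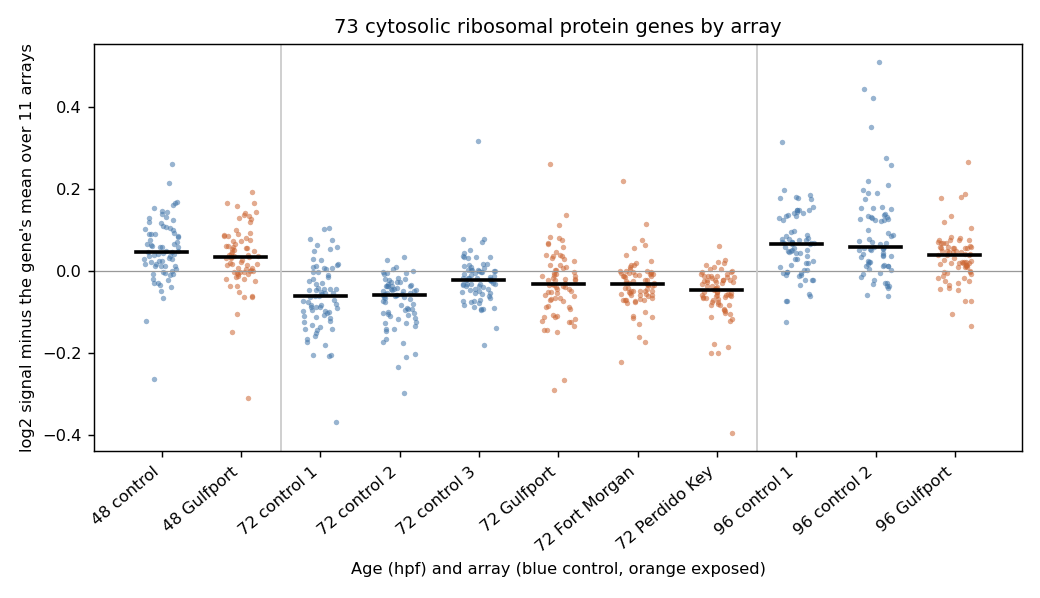
Log2 signal of each ribosomal protein gene minus its own mean over the 11 arrays (vertical axis), by array and age (horizontal axis). Each point is a gene, the black bar is the median over 73 genes, and blue marks control and orange exposed arrays; the bars of all 6 arrays at 72 hpf lie below 0 and those of the 5 arrays at 48 and 96 hpf above it.

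This order was also counted gene by gene. The count was not planned and uses the same 11 arrays as the medians, so it is no separate support for them. All 3 controls at 72 hpf were below the controls at both other ages in 34 of the 73 genes, against 3.69% of tested probe sets, and above them in 0 genes, against 5.31%. The same order was found in 13 of the 56 measured genes for proteins of the mitochondrial ribosome, which translates the few messages of the mitochondrial genome, and in 10 of the 123 other bright probe sets. All 6 arrays at 72 hpf were below all 5 others in 19 of the 73 genes, against 0.785% of tested probe sets. These 19 were rpl14, rpl15, rpl17, rpl23, rpl27, rpl35, rpl36a, rpl39, rpl5b, rpl7a and rpl9 of the large subunit, and rps2, rps3a, rps7, rps10, rps15a, rps20, rps23 and rps29 of the small subunit. The 56 mitochondrial ribosomal protein genes had this stricter order in 3 genes, and the 123 other bright probe sets in 1. When each array was centred on its own median, an alternative also chosen after seeing the data, 39 and 18 of the 73 genes had the 2 orders, and 15 genes had the second order both ways. No test of the order over the genes was made, since the genes share the same 11 arrays.

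From 48 to 72 hpf in controls, 0 of the 73 genes passed the threshold (limma, Benjamini-Hochberg adjusted p under 0.05 over 9803 probe sets), while 17.9% of tested probe sets did. No member had an unadjusted p under 0.05, whereas 31.4% of tested probe sets had. The log2 difference was below 0 in 65 genes, with a median of -0.10, and -0.03 over all tested probe sets. The control at 48 hpf was above every control at 72 hpf in 53 genes, against 39.3% of tested probe sets. A fit that lets the spread depend on brightness, with outlier-robust settings, also called 0 members, with 6 lower at an unadjusted p under 0.05. The share of all tested probe sets at that p was not counted for this fit. The members of lowest p on the lower side were rpl37, rpl22l1, rps15a and rps9. For rpl37, a large-subunit protein, the 48 hpf control read 12.84 and the 72 hpf controls 12.62, 12.60 and 12.55, a difference of -0.25 (SE 0.12, adjusted p = 0.220 by limma). For rpl22l1, which encodes a close relative of Rpl22, the values were 11.40 at 48 hpf and 11.22, 10.91 and 11.08 at 72 hpf, a difference of -0.33 (SE 0.18, adjusted p = 0.243 by limma). Both genes lay below the 48 hpf value on all 3 arrays at 72 hpf. At the other end stood rps27l, with a difference of 0.20 (SE 0.13, adjusted p = 0.371 by limma). The comparison has a single array at 48 hpf, whose own spread is unknown and was taken from the other controls.

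From 72 to 96 hpf in controls, 70 of the 73 genes had a log2 difference above 0, with a median of 0.11, against -0.04 over all tested probe sets. In 45 genes both 96 hpf controls were above all 3 controls at 72 hpf, against 18.9% of tested probe sets. By limma, 0 of the 73 passed the threshold, while 9.6% of tested probe sets did. At an unadjusted p under 0.05 stood 6 members (8.22%), all of them higher at 96 hpf, against 26.2% of tested probe sets. With a spread that depends on brightness and robust settings, 5 large-subunit genes rose (rpl29, rpl38, rpl26, rpl14 and rpl36). Their adjusted p-values by limma ran from 0.0156 to 0.0394, where 11.9% of tested probe sets passed. In that fit 19 members had an unadjusted p under 0.05, and the share of all tested probe sets at that p was not counted. In the main fit the typical spread of all probe sets, an SD of 0.13, was mixed into each gene's own. The median SD of the members between arrays of a group was 0.06, and their median after mixing was 0.11.

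The gene with the largest difference was rpl29, whose protein lies on the large subunit and also binds heparin at the cell surface in mammals. Its signal was 12.07 at 48 hpf, 11.73, 11.93 and 12.05 at 72 hpf, and 12.30 and 12.52 at 96 hpf. Both 96 hpf values were above all earlier control values, and the difference from 72 hpf was 0.50 (SE 0.13, 1.42-fold, adjusted p = 0.0504 by limma). The value for rpl14 was 12.63 at 48 hpf, 12.30, 12.41 and 12.52 at 72 hpf, and 12.66 and 12.95 at 96 hpf, a difference of 0.39 from 72 hpf (SE 0.13, adjusted p = 0.091 by limma). For rpl38, whose loss in mice alters the translation of Hox messages and the pattern of the vertebrae, the values were 12.86 at 48 hpf, 12.72, 12.63 and 12.76 at 72 hpf, and 12.96 and 13.09 at 96 hpf. The difference of rpl38 from 72 hpf was 0.32 (SE 0.10, adjusted p = 0.0979 by limma). The protein of rpl26 sits near the tunnel through which new protein leaves the ribosome, and its signal was 12.77, 12.75 and 12.91 at 72 hpf and 13.06 and 13.23 at 96 hpf, a difference of 0.33 (SE 0.11, adjusted p = 0.104 by limma). In each of these 3 genes the 72 and 96 hpf controls did not overlap. The 3 genes below 0 were rpl35a, rpl10 and rpl6, with differences of -0.02 each.

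**Figure D3:**
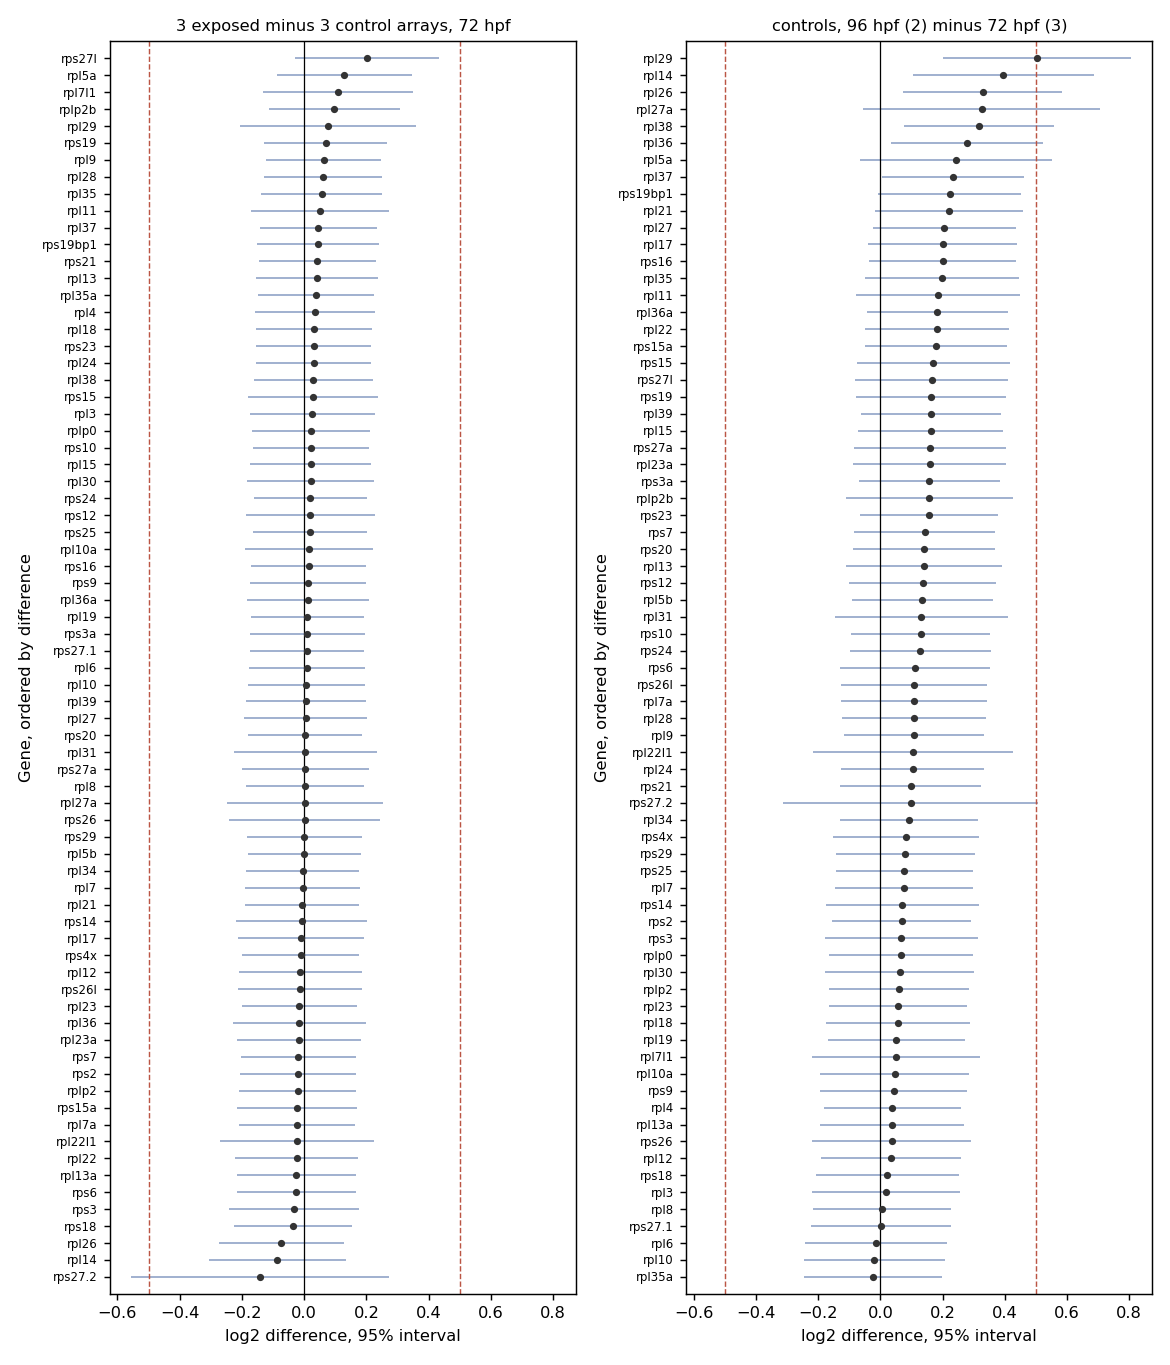
Log2 difference of each of the 73 genes with its 95% interval from limma (horizontal axis; points are estimates and bars intervals), for 3 exposed minus 3 control arrays at 72 hpf (left) and 2 controls at 96 hpf minus 3 at 72 hpf (right), genes ordered by difference. Dashed lines mark -0.5 and 0.5: at 72 hpf 72 of the 73 intervals lie between them, while on the right 65 do and 70 points lie above 0.

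Over the whole span from 48 to 96 hpf, the members ended close to where they began, while many other genes moved. The median difference was 0.02, with 42 genes above 0 and 31 below. With each array centred on its median it was -0.02, with 30 above and 43 below, so the direction is not settled. By limma 0 of the 73 passed, against 34% of tested probe sets. At an unadjusted p under 0.05 stood 1 member, rps27l, against 44.6% of tested probe sets, and the fit with a brightness-dependent spread also called 0 members. After rps27l, the lowest p on the higher side were those of rpl26 (0.29, adjusted p = 0.166 by limma) and rpl29 (0.34, adjusted p = 0.177 by limma), and on the lower side that of rps27.1 (-0.18, adjusted p = 0.333 by limma). The 95% interval of the difference lay within -0.5 and 0.5 in 62 of the 73 genes. Among the 123 other bright probe sets, 25 passed in this comparison (20.3%). The 3 control comparisons share arrays, and so their values are not independent of each other.

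The parts of the ribosome were compared by their medians. From 48 to 72 hpf the median difference was -0.13 over the 28 genes with small-subunit symbols, which include rps19bp1. It was -0.10 over the 42 genes with large-subunit symbols and -0.02 over the 3 stalk genes. From 72 to 96 hpf it was 0.12, 0.12 and 0.07, with all 28, 39 of 42 and all 3 above 0. At an unadjusted p under 0.05 by limma stood 0 of the 28, 6 of the 42 and 0 of the 3, against 26.2% of tested probe sets. A difference between the subunits was not tested. The stalk recruits the elongation factors to the ribosome, and rplp0, which anchors it, read 13.71 at 48 hpf, 13.72, 13.64 and 13.70 at 72 hpf and 13.70 and 13.80 at 96 hpf. Of the proteins it anchors, rplp2 read 12.67 at 48 hpf, 12.63, 12.68 and 12.71 at 72 hpf and 12.76 and 12.72 at 96 hpf. Their differences from 72 to 96 hpf were 0.07 and 0.06, with adjusted p-values of 0.720 and 0.748 by limma. The duplicate rplp2b read 12.94 at 48 hpf, 12.64, 12.74 and 12.86 at 72 hpf and 12.81 and 13.00 at 96 hpf. Its differences were larger, at -0.20 from 48 to 72 hpf and 0.16 from 72 to 96 hpf (adjusted p = 0.416 and 0.435 by limma), and the 72 and 96 hpf values overlapped.

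Rpl5 and Rpl11 join the 5S ribosomal RNA before it enters the large subunit, and in human and mouse cells the free particle binds Mdm2, the ubiquitin ligase that holds p53 down. The signal of rpl5a was 12.24 at 48 hpf, 12.13, 12.02 and 12.24 at 72 hpf and 12.54 and 12.20 at 96 hpf. Its 96 hpf controls differed from each other by more than the ages did, and the 72 and 96 hpf controls overlapped. The duplicate rpl5b read 12.63, then 12.58, 12.58 and 12.59, then 12.77 and 12.67, and the 96 hpf controls were above the rest. For rpl11 the 72 hpf controls, at 12.98, 12.82 and 12.77, overlapped the 96 hpf controls, at 12.96 and 13.13. The differences from 72 to 96 hpf were 0.24, 0.13 and 0.19 (adjusted p = 0.294, 0.428 and 0.349 by limma).

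Some members are known for a role beyond the ribosome. The substrate of the S6 kinases, rps6, read 13.10 at 48 hpf, 12.90, 13.01 and 12.99 at 72 hpf and 13.15 and 13.00 at 96 hpf. Its 72 and 96 hpf values overlapped, and its difference of 0.11 between these ages had an adjusted p of 0.541 by limma. The gene rps27a, which encodes a ubiquitin joined to a small-subunit protein, had 72 hpf controls at 13.13, 13.31 and 13.27 and 96 hpf controls at 13.36 and 13.43, a difference of 0.16 (adjusted p = 0.380 by limma). Of 19 listed genes whose human counterparts are mutated in Diamond-Blackfan anaemia, an inherited failure of red cell production, 16 were measured as members. The list held the symbol rps27, so rps27.1 and rps27.2 were not counted. All 16 were lower at 72 than at 48 hpf and 15 were higher at 96 than at 72 hpf. Of all 73 members, 65 were lower and 70 higher in the same steps. Over all tested probe sets, 46.2% were above 0 in the first step and 43.5% in the second. In either step 0 of the 16 passed, where 17.9% and 9.6% of tested probe sets did.

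At 72 hpf, the ribosomal protein genes of exposed embryos lay close to those of controls, and none passed the test. Across 3 exposed and 3 control arrays, 0 of the 73 passed by limma, against 0.571% of tested probe sets, so a count of 0 is near what the background gives. None had an unadjusted p under 0.05, whereas 8.75% of tested probe sets had, and none did so with the brightness-dependent spread either. The median difference was 0.01, against -0.02 over all tested probe sets, and the genes ranged from -0.14 (rps27.2) to 0.20 (rps27l). Next to these extremes stood rpl5a at 0.13 (SE 0.09, adjusted p = 0.736 by limma) and rpl14 at -0.09 (SE 0.10, adjusted p = 0.850 by limma). In 72 of the 73 genes the 95% interval lay within -0.5 and 0.5, and the interval of rps27.2 reached to -0.56. In the fit over all 11 arrays with age as a covariate, the median was -0.01, 0 of the 73 passed, against 1.31% of tested probe sets, and all 73 intervals lay within -0.5 and 0.5, with the outermost bounds at -0.33 and 0.28. At an unadjusted p under 0.05 there were 0 members and 11.4% of tested probe sets.

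The one member whose exposed and control arrays did not overlap at 72 hpf was rps27l, against 13.5% of tested probe sets. In human cells RPS27L is a target of p53. Its control signals were 8.82, 8.69 and 8.88, and the exposed arrays read 9.12 (Gulfport), 8.98 (Fort Morgan) and 8.89 (Perdido Key). The Perdido Key value exceeded the highest control by only 0.01, and the mean difference was 0.20 (SE 0.10, adjusted p = 0.613 by limma). The same gene read 8.60 in the control and 8.55 in the Gulfport array at 48 hpf, and 8.93 and 8.99 in controls and 9.04 in the Gulfport array at 96 hpf. Across controls its level at 48 hpf was below that of all later arrays, with a difference of 0.36 to 96 hpf (SE 0.14, adjusted p = 0.0858 by limma). Over all ages the exposed arrays differed by 0.13 (SE 0.07, adjusted p = 0.555 by limma).

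**Figure D4:**
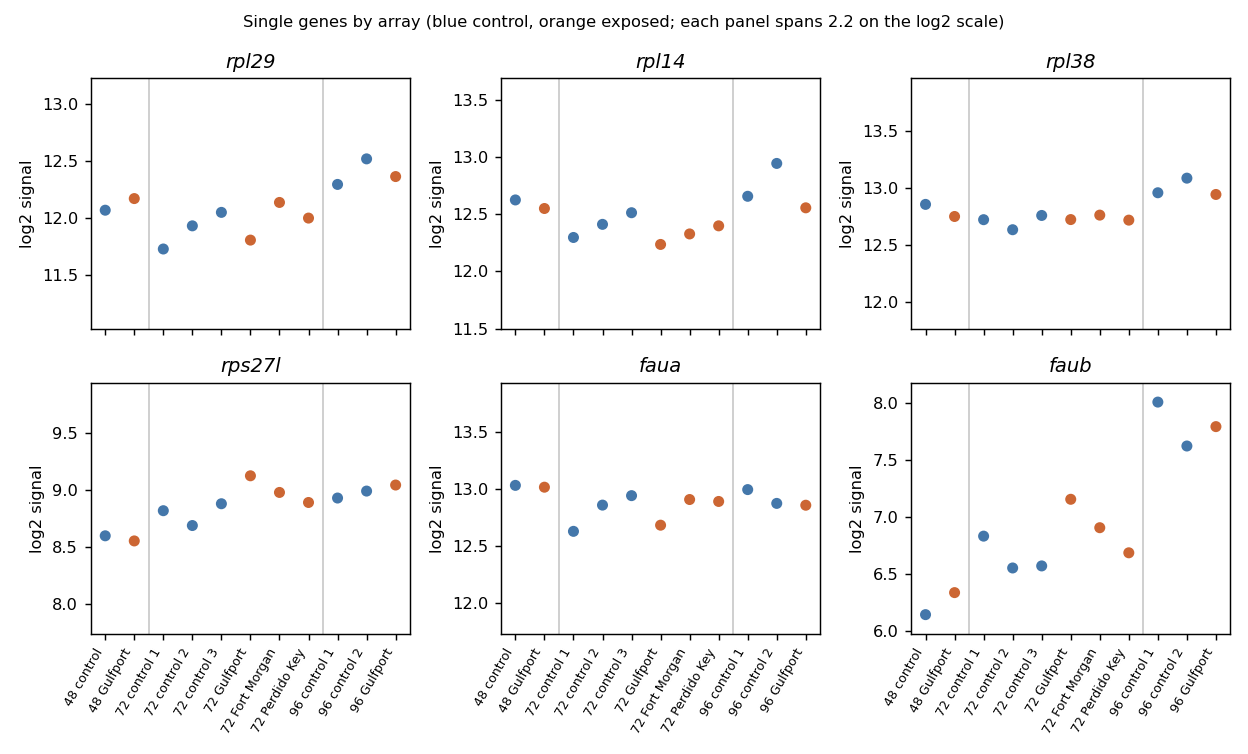
Log2 signal by array (horizontal axis, ages 48, 72 and 96 hpf from left to right; blue control, orange exposed) for rpl29, rpl14, rpl38, rps27l, faua and faub, each panel spanning the same height on the log2 scale. The 96 hpf arrays of rpl29, from 12.30 to 12.52, lie above all the others, the exposed arrays of rps27l at 72 hpf lie above the 3 controls of that age, and faub stands at 7.62 or above at 96 hpf and below 7.2 at the earlier ages.

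Taken one emulsion at a time, each array was set against the same 3 controls, so the 3 comparisons share them, and the spread came from the replicated controls. With Gulfport emulsion, 49 of the 73 genes were above the control mean, against 45.7% of tested probe sets. The median was -0.02 over all tested probe sets and 0.02 over the 73 genes. By limma 0 passed, against 2.71% of tested probe sets, and 1 member, rps27l, had an unadjusted p under 0.05 (difference 0.33, SE 0.13, adjusted p = 0.264), against 17.0% of tested probe sets. The brightness-dependent fit gave the same 2 counts. Next to rps27l, the members of lowest p on the higher side included rpl11 at 0.14, and on the lower side rpl14 at -0.17 (adjusted p = 0.678 by limma). With Fort Morgan emulsion the median was 0.01 and with Perdido Key emulsion -0.00, and 0 members passed in each, against 0.224% of tested probe sets in either case. None had an unadjusted p under 0.05 in the main or the brightness-dependent fit, whereas 6.61% and 4.75% of tested probe sets had in the main fit.

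The widest single difference at 72 hpf was that of rps27.2 with Perdido Key emulsion. The gene, a duplicate of rps27.1, read 11.24, 11.07 and 11.69 in the controls, 11.45 with Gulfport, 11.15 with Fort Morgan and 10.98 with Perdido Key emulsion. The Perdido Key value was below all 3 controls, with a difference of -0.36 (SE 0.22, adjusted p = 1.00 by limma), and of -0.18 without control array 3, the highest control. Without that array the difference of the 3 exposed arrays from controls turned from -0.14 to 0.03. For rps27.1, which lay between 12.89 and 12.96 on the same arrays, the exposed arrays differed from the 72 hpf controls by 0.01 (adjusted p = 0.991 by limma).

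The Gulfport array was also set against the arrays of the other 2 emulsions at 72 hpf. The median difference was 0.01, 0 of the 73 genes passed by limma, against 0.0306% of tested probe sets, and no member had an unadjusted p under 0.05, against 9.44%. The brightness-dependent fit gave the same counts of members. The largest differences were those of rps27.2 at 0.39 (SE 0.24) and rpl29 at -0.26 (SE 0.18). In 65 genes the 95% interval lay within -0.5 and 0.5.

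At 96 hpf, after Gulfport emulsion from 48 to 96 hpf, 52 of the 73 genes were below the mean of the 2 controls. Their median was -0.04, against -0.02 over all tested probe sets, of which 45.0% were above that mean. Without 96 hpf control array 2 the median of the members was -0.01. By limma 0 passed, against 0.0918% of tested probe sets, and in neither fit did a member have an unadjusted p under 0.05, against 4.63% of tested probe sets in the main fit. The member furthest from its controls was rpl27a, of the large subunit, at 11.89 against a control mean of 12.27 ± 0.38 (SD, n = 2), a difference of -0.38 (SE 0.22, adjusted p = 1.00 by limma). That difference was about as large as the SD of the controls. For rpl37 the exposed array read 12.62 against 12.87 and 12.78, and for rpl14 12.56 against 12.66 and 12.95. Both exposed values lay below their controls, with differences of -0.21 and -0.24 (adjusted p = 1.00 for each by limma). The test of whether the Gulfport difference at 96 hpf departed from that at 72 hpf gave a median of -0.06. No member and no tested probe set passed it by limma (0%), and at an unadjusted p under 0.05 there were 0 members in either fit and 9.72% of tested probe sets. Only 38 of the 73 intervals of that test lay within -0.5 and 0.5, so it bounds a change between the windows least closely.

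At 48 hpf there was 1 control and 1 Gulfport array, and the difference has no replicate check. The median over the 73 genes was -0.03, with 22 above 0 and 51 below. Over all tested probe sets it was 0.01, and 52.3% were above 0. No member reached a log2 difference of 0.5 in either direction, against 3.32% of tested probe sets. The extremes were rpl27a, with a difference of 0.18, and rps15, with one of -0.13. Close to rps15 lay rps15a, at 12.52 against 12.65 in the control.

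Some genes of ribosome assembly passed the test with age, at a share below that of all tested probe sets. Of 73 listed genes for ribosome assembly and RNA polymerase I, which makes ribosomal RNA, 56 were measured. Some of the 56 read close to the lower limit of 6 at an age. In controls npm1b read 6.91 at 48 hpf and 6.32 and 5.79 at 96 hpf, and polr1b read 6.07 at 48 hpf. From 48 to 96 hpf in controls 12 rose and 2 fell, with a median of 0.28, where 34% of tested probe sets passed. Among those that rose were tsr1, a factor of small-subunit maturation (0.79, SE 0.16, adjusted p = 0.0072 by limma), and polr1b, a core subunit of RNA polymerase I (0.69, SE 0.16, adjusted p = 0.0114 by limma). The nucleophosmin genes went opposite ways, with npm1a higher by 0.45 and npm1b lower, at -0.86 (SE 0.22, adjusted p = 0.0206 by limma). From 48 to 72 hpf 1 of the 56 rose, npm1a, where 17.9% of tested probe sets passed. From 72 to 96 hpf, where 9.6% passed, 2 rose, the nucleolar helicase ddx21 (0.68, SE 0.16) and tsr2 (0.52, SE 0.11), which in yeast and human cells carries Rps26 to the ribosome. In the exposure comparisons at 72 and 96 hpf 0 passed, where at most 2.71% of tested probe sets did. The medians had different signs, a difference that was not tested. At 72 hpf the median was 0.00 with Gulfport (28 of 56 higher), 0.10 with Fort Morgan (49 higher) and -0.15 with Perdido Key emulsion (48 lower). At 96 hpf it was -0.23 with Gulfport emulsion (51 lower). In the same order, 45.7%, 47.0%, 47.9% and 45.0% of all tested probe sets were higher. The difference between this list and the ribosomal protein genes was not tested.

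The 56 mitochondrial ribosomal protein genes gave 0 calls in every comparison tested. In the 3 control comparisons 17.9%, 9.6% and 34% of tested probe sets passed. In the exposure comparisons between 0% and 2.71% passed, so there a count of 0 is near what the background gives. Their medians were -0.07 from 48 to 72 hpf, 0.12 from 72 to 96 hpf and -0.06 for exposed against control arrays at 72 hpf. Over all ages, 54 of the 56 were below 0 in exposed arrays, with a median of -0.07. Among all tested probe sets the median was -0.01, and 44.0% were above 0. The 56 genes share the same arrays, and their common direction was not tested. At 72 hpf the median of the 56 genes was -0.07 with Gulfport and -0.10 with Perdido Key emulsion. With Fort Morgan emulsion it was 0.03, where 33 of the 56 and 47.0% of tested probe sets were higher. In the fit over all ages the lowest difference was that of mrpl45, a protein of the large mitochondrial subunit, at -0.24 (SE 0.06, adjusted p = 0.115 by limma).

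Most proliferation genes fell with age in controls. Of 15 measured, 10 fell from 48 to 72 hpf, 2 from 72 to 96 hpf and 12 over the whole span, with medians of -0.57, -0.20 and -0.70, where 17.9%, 9.6% and 34% of tested probe sets passed. The mitotic kinase gene plk1 fell in both steps, with differences of -1.05 (SE 0.20, adjusted p = 0.00957 by limma) and -0.75 (SE 0.15, adjusted p = 0.022 by limma), and the mitotic cyclin gene ccnb1 fell from 48 to 72 hpf (-1.05, SE 0.16, adjusted p = 0.00407 by limma). At 72 hpf the mean of the exposed arrays was below that of controls in all 15, with a median of -0.16. Over all tested probe sets the median was -0.02, and 44.6% were above 0. None of the 15 passed, against 0.571% of tested probe sets, so a count of 0 is near what the background gives. The median of the 15 was -0.27 with Gulfport and -0.27 with Perdido Key emulsion, and -0.01 with Fort Morgan emulsion, where 7 of the 15 were higher. The part of these shifts in the ribosomal protein values was not tested.

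**Figure D5:**
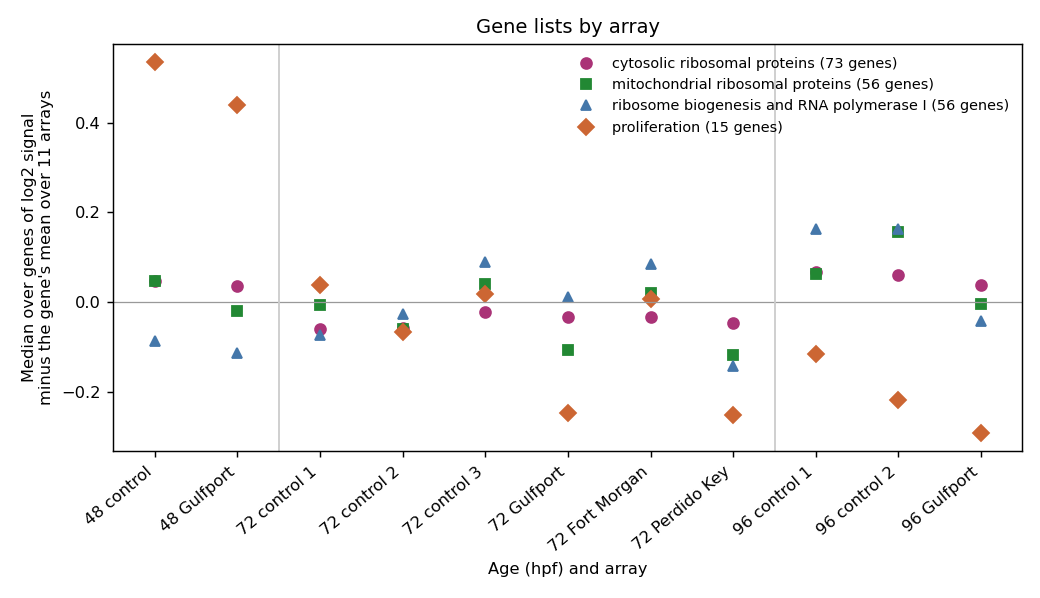
Median over the genes of a list of the log2 signal minus the gene's mean over 11 arrays (vertical axis), by array and age (horizontal axis), for 73 cytosolic and 56 mitochondrial ribosomal protein genes, 56 ribosome biogenesis genes and 15 proliferation genes. The proliferation medians fall from the 48 to the 96 hpf controls, and the cytosolic ribosomal protein medians stay within 0.1 of 0 on all 11 arrays.

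Of 23 measured genes whose mammalian counterparts also carry the TOP tract, 4 passed as higher and 1 as lower from 48 to 96 hpf. Over all tested probe sets 34% passed. The measured elongation factor 1 alpha gene of highest signal, eef1a1l1, read 13.85 in the 48 hpf control and 13.95 and 13.94 in the 96 hpf controls. The signal of eef1a1a was 6.72 in the 48 hpf control, against a lower limit of 6. Of the elongation factor 1 alpha genes, which bring aminoacyl-tRNA to the ribosome, eef1a1a rose by 2.18 (SE 0.20, adjusted p = 0.000137 by limma). Its duplicate eef1a1b is among those that passed as higher, but its signal was under 6 on every array at 48 and 72 hpf and at least 6.24 at 96 hpf. The gene was tested only because of its 96 hpf arrays, so its passing is no support for a rise, and no size is given. From 72 to 96 hpf 3 of the 23 passed as higher, eef1a1b again among them, where 9.6% of tested probe sets passed. The exposure comparisons at 72 and 96 hpf gave 0, where at most 2.71% of tested probe sets passed. Of 11 measured genes of the S6 kinases and the TOR pathway, 1 passed as higher from 48 to 72 hpf, 1 from 72 to 96 hpf and 2 from 48 to 96 hpf. In these comparisons 17.9%, 9.6% and 34% of tested probe sets passed. The gene from 72 to 96 hpf was eif4ebp3l, a repressor of cap-dependent translation, which rose by 1.03 (SE 0.19, adjusted p = 0.0133 by limma). In the exposure comparisons 0 of the 11 passed.

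Of 9 measured genes of the p53 and Mdm2 axis, 0 passed in the comparison of 3 exposed with 3 control arrays at 72 hpf. There the median was 0.27, and 0.571% of tested probe sets passed. Among the 9, gadd45aa and fas reached 6 only on the Gulfport array at 72 hpf, at 6.45 and 6.32. They were thus measured only because of an exposed array, so the median is no support for a rise. In controls 1 of the 9 rose from 72 to 96 hpf, where 9.6% of tested probe sets passed. With Gulfport emulsion at 72 hpf 2 of the 9 rose, where 2.71% of tested probe sets passed. These were mdm2, at 8.46 against 7.51, 7.68 and 7.65 in controls (difference 0.84, SE 0.14, adjusted p = 0.0195 by limma), and phlda3 (difference 0.77, SE 0.14, adjusted p = 0.0324 by limma). The Fort Morgan and Perdido Key arrays read 7.64 and 7.55 for mdm2, within the control range. On the Gulfport array of the same age, rpl11 stood at 13.00, rpl5a at 12.18 and rpl5b at 12.56, all within 0.15 of their control means. The gene rps27l had its highest value of all 11 arrays there, at 9.12, against 9.04 on the Gulfport array at 96 hpf. A link between these transcript levels and mdm2 was not tested.

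Some ribosomal protein genes have symbols outside the naming rule. Of 4 such genes measured, rpsa and rack1, both of the small subunit, did not pass in any comparison. In controls 17.9% of tested probe sets passed from 48 to 72 hpf, 9.6% from 72 to 96 hpf and 34% from 48 to 96 hpf. In the exposure comparisons tested, between 0% and 2.71% passed. The gene fau encodes a ubiquitin-like protein joined to a small-subunit protein, and zebrafish carry 2 copies of it, faua and faub. The signal of faua was 13.03 at 48 hpf, 12.63, 12.86 and 12.94 at 72 hpf and 13.00 and 12.88 at 96 hpf, and the 72 and 96 hpf values overlapped. The signal of faub was 6.15 at 48 hpf, 6.83, 6.55 and 6.57 at 72 hpf and 8.01 and 7.62 at 96 hpf, so that at 48 hpf it lay close to the lower limit of 6. It rose from 72 to 96 hpf by 1.16 (SE 0.15, adjusted p = 0.00225 by limma) and over the whole span by 1.67 (adjusted p = 0.000569 by limma). The exposed arrays of faub read 6.34 at 48 hpf, 7.16, 6.91 and 6.69 at 72 hpf and 7.79 at 96 hpf, and at 72 hpf they overlapped the controls, with a difference of 0.26 (adjusted p = 0.637 by limma).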

How the data were processed

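Total RNA of whole zebrafish embryos was hybridized to Affymetrix zebrafish arrays, 11 arrays in 8 groups. The deposited log2 signals were made by the authors with RMA (background correction, normalization between arrays, summary of probes), per the submitters' processing notes (software version not given in the sources used here). Such values can understate differences at low signal. The number of arrays limits the precision.

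From 15617 probe sets, 115 control probe sets were left out, and 9803 with log2 of at least 6 on 1 or more arrays were tested. Of these, 7570 had 1 symbol in the platform annotation, 80 several and 2153 none. The probe set of highest mean stood for a gene. limma 3.58.1 (R 4.3.3) fitted 1 mean per group, or age and exposure, with adjustment over all tested probe sets; the fit was tested on simulated data. Single arrays took their spread from the replicated controls. Genes were named by a rule: fixed members of known role, and per comparison those of largest difference or lowest p. Members and lists were chosen with earlier results of these data known. Counts of genes whose arrays did not overlap between groups were not planned. Figures used matplotlib 3.10.9. Alternatives were other scalings, filters, probe set means, priors, blocks and left-out arrays.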

Additional observations from a re-analysis of the deposited data

How the results depend on the processing

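Over 12 comparisons, 119 alternatives gave a count of called members, and 116 left it at 0. The other 3 concerned controls at 96 against 72 hpf: the mean of a gene's probe sets called 1 (rpl29, adjusted p = 0.0446 by limma), a brightness-dependent and robust spread called 5, and the replicate block called 1 (rpl29, 0.58, adjusted p = 0.0369 by limma). The labels tie the replicate numbers to nothing. Deviations of same-numbered arrays correlated at -0.05 and -0.06 over 2 pairs. With 2 controls at 96 hpf their deviations mirror each other, so these pairs are not independent and cannot settle whether same-numbered arrays belong together. Centring each array on its median moved the median of the members to -0.0215 from 48 to 96 hpf and to -0.014 for Gulfport against the other emulsions. Leaving out 1 array kept the median between 0.10 and 0.13 from 72 to 96 hpf, between 0.00 and 0.02 for exposed arrays at 72 hpf, and between -0.0414 and -0.0146 for Gulfport at 96 hpf. Of 916 alternatives for single members, 900 kept direction and call, and 10 turned the direction of a value that had not passed: rpl3 from 48 to 72 hpf to -0.0044 (mean of probe sets) and, over left-out arrays, between -0.008 and 0.0612, rpl21 to -0.0026 (centred), rpl10 from 72 to 96 hpf to 0.0049 and rpl6 to 0.0047 (both with the replicate block), with ranges over left-out arrays of -0.0452 to 0.0049 and -0.0494 to 0.0193, rps27.2 in exposed arrays at 72 hpf between -0.272 and 0.0347 (the latter without 72 hpf control 3) and rpl29 over all ages to -0.0263 (Gulfport and controls only). The cause of these turns was not tested.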
